A study of Mus musculus with 6 samples.

Results

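The TNF superfamily pairs membrane-bound or secreted ligands (Tnfsf genes) with receptors (Tnfrsf genes) that control survival, death and activation of immune cells. Most receptors recruit TRAF adaptors and activate NF-kB, some carry a death domain, and a few are decoys that bind a ligand without a full signalling tail. Dendritic cells (DC) display antigen to T cells, and in them members of the family pass survival and activation signals to B cells and T cells and receive such signals in return. The members described here are all probe sets of the array with 1 gene symbol that begins with Tnfrsf or Tnfsf and a digit, without Tnfrsf1a, Tnfrsf1b and Tnfsf9. They are 36 probe sets for 23 genes (17 receptors and 6 ligands), of 22626 probe sets that are no controls. A probe set counted as measured when its signal was over the floor, the 40th percentile of all signals (53.46, rounded to 1 decimal), on 2 or more of the 6 arrays. This held for 19 member probe sets of 14 genes, 10 receptors and 4 ligands.

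Mouse DC were grown in culture from bone marrow of a CAR-transgenic mouse (female, 13 weeks old), expanded for 7 days and differentiated for 7 days with GM-CSF at 250 U/ml. Every group carries the transgene, and its promoter is not given by the labels. Cells received AdIkBa-SR, an adenovirus for the super-repressor form of IkBa, which holds NF-kB in the cytoplasm and resists the breakdown that releases it, or AdOVA, the control adenovirus, both at 1500 particles per cell for 2 h, or no virus. TNFa, an inflammatory cytokine and NF-kB activator, was given at 50 ng/ml over 4 h in 3 of the groups. In cells with virus it followed 18 h of further culture. The 6 groups are AdIkBa-SR+TNFa, AdIkBa-SR, AdOVA+TNFa, AdOVA, TNFa (without virus) and untreated, with 1 array each. No group has a replicate, separate cultures are not named, and precision is limited by how few arrays there are. In bulk RNA, fewer cells of a type and less RNA per cell cannot be told apart.

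The array headers record 2 hybridization times, and the first holds the AdOVA, TNFa and untreated arrays. The AdIkBa-SR array was washed and stained with settings of its own, and these cannot be told apart from its treatment. AdIkBa-SR over AdOVA thus also compares different hybridization times and wash settings, while AdIkBa-SR+TNFa and AdOVA+TNFa share both. No mock transduction or matching culture time is recorded for cells without virus. Virus, transduction procedure and time in culture thus cannot be told apart either. Median signals of the arrays ran from 74.4 to 88.5, and 57.9% to 63.4% of probe sets were over the floor. Both measures were highest on the AdOVA arrays (88.5 and 63.4% with AdOVA+TNFa, 82.6 and 62.3% with AdOVA). The other arrays reached 77.4 and 59.2% at most (untreated). Of 11 DC markers, 10 were measured, among them Cd74, H2-Aa and Itgax, while Flt3, a progenitor receptor, was over the floor on the AdOVA array alone. The T cell markers Cd3e, Cd3d, Cd3g and Cd4 and the B cell factor gene Pax5 were under the floor on all 6 arrays. However, 2 of 7 T cell markers on the array, Thy1 and Cd247, were measured. So were 3 of 6 B and plasma cell markers on the array, Blk, Ms4a1 and Cd79a. All 8 granulocyte markers and all 5 megakaryocyte markers were measured, and their summed signals are given where they move with a member.

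Promoter sequences are shown for 3 members described below. These are a decoy receptor that rose with AdOVA, a costimulatory receptor that was not called, and a ligand. The ligand was at least 2-fold lower with AdIkBa-SR than with AdOVA in both pairs. Tnfrsf22, a further decoy receptor that rose with AdOVA, has no listed window. The sequences are from RefSeq (GRCm38.p6), 250 bases before to 50 after a transcript start, written 5′ to 3′ along the gene. The Tnfrsf23 window lies at chr7:143685826-143686125 (minus strand), the Tnfsf13b window at chr8:10006383-10006682 (plus strand) and the Tnfrsf9 window at chr4:150927749-150928048 (plus strand). Capitals mark matches to the NF-kB consensus or to GAAANNGAAA, a repeat found in sites of interferon regulatory factors, each searched on both strands.
Tnfrsf23: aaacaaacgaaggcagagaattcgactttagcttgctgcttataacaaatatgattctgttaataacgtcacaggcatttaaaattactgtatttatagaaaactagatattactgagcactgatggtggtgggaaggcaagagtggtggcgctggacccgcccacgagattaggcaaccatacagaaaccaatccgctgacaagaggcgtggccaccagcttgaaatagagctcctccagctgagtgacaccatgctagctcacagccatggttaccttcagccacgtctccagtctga
Tnfsf13b: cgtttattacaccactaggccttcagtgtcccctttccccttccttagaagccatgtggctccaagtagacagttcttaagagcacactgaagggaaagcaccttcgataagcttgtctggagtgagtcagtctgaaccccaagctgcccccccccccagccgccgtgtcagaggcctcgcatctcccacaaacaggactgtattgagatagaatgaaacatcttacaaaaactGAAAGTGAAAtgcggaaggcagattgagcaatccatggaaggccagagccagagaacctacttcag
Tnfrsf9: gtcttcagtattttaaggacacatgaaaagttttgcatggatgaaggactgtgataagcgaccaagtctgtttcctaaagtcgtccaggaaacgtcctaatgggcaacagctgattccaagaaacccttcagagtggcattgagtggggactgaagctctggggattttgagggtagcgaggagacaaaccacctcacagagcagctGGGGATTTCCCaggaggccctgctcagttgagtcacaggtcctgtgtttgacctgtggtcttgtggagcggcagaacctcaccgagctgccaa
The Tnfrsf23 window holds neither motif, and it does not hold the start of the gene on the minus strand (143686436). The Tnfsf13b window has 1 match to the repeat, which starts at position -16 from the transcript start, and the other listed Tnfsf13b window has none. That other window, and not the printed one, holds the start of the Tnfsf13b gene (10006229). In the Tnfrsf9 window 2 overlapping matches to the NF-kB consensus start at positions -43 and -42. The other listed Tnfrsf9 window, at chr4:150919905-150920204, has none, and it is the one that holds the start of the gene (150920155). Among 32851 promoter windows of this length, 5.81% hold the NF-kB consensus and 3.44% the repeat, and among 23 windows of 19 member genes each motif was found in 3. A match describes letters and shows no binding.

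**Figure D1:**
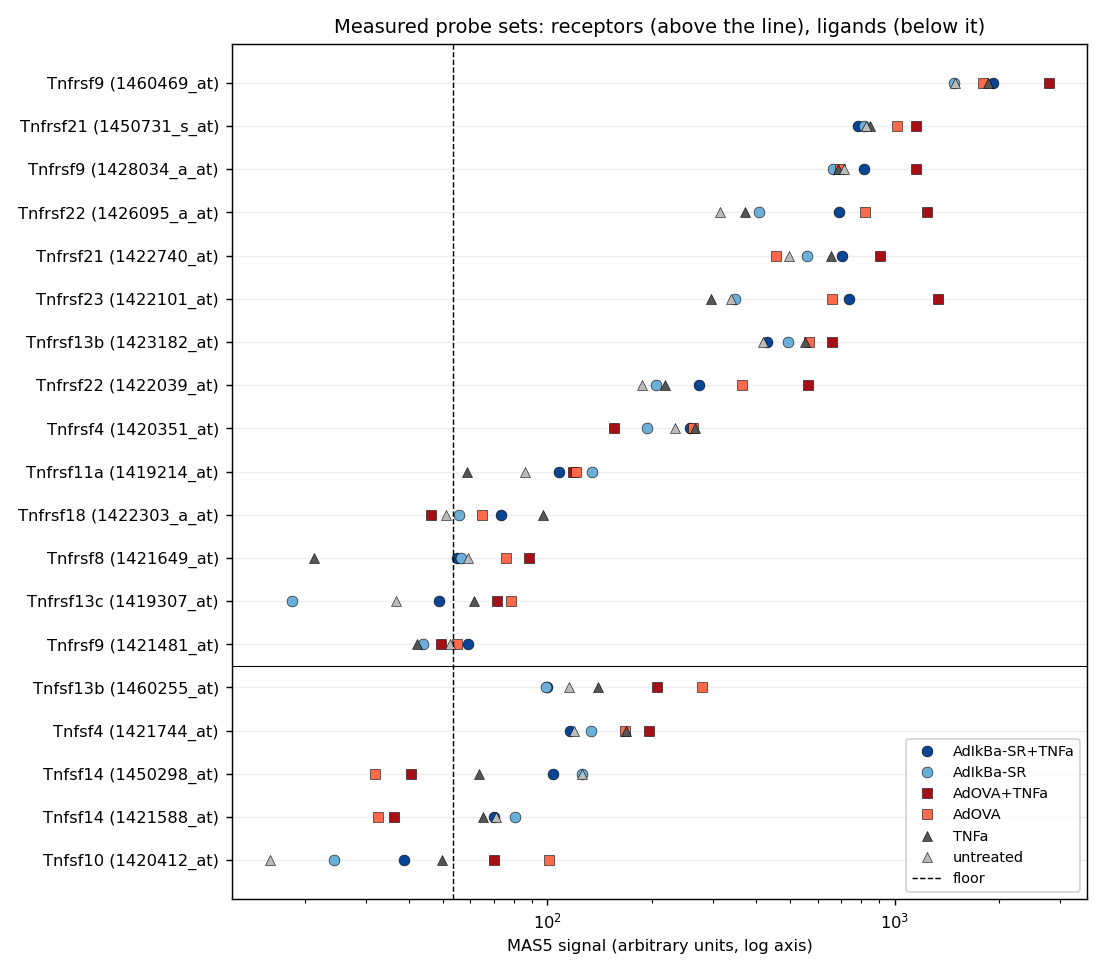
MAS5 signal (x axis, log scale, arbitrary units) of the 19 measured probe sets on each of the 6 arrays, receptors above the line and ligands below it, with the floor dashed. Both AdOVA arrays (red squares) lie right of the other 4 arrays for Tnfrsf22 and Tnfsf13b and left of them for Tnfsf14.

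Tnfrsf22 and Tnfrsf23, which encode decoy receptors of mouse for the death ligand TRAIL, rose with AdOVA and were the only members called in any comparison of the fit described next. The genes are neighbours on chromosome 7 (GRCm38.p6, 143634808-143649675 and 143665807-143686436). On the brighter Tnfrsf22 probe set (1426095_a_at) the signals were 691 with AdIkBa-SR+TNFa, 407 with AdIkBa-SR, 1236 with AdOVA+TNFa, 822 with AdOVA, 370 with TNFa and 315 untreated. Both AdOVA arrays were above the other 4. AdOVA over untreated was 2.61-fold and AdOVA+TNFa over TNFa was 3.34-fold, pairs that share no array (fitted log2 1.56, SE 0.24, limma adjusted p = 0.00083).

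Differences were tested with limma in 1 fit of all 6 arrays and 14902 measured probe sets, with 1 residual degree of freedom. Its spread is how far the TNFa response without virus and with AdOVA differed, pooled over probe sets, so it does not measure variation between cultures. The AdOVA contrast of this fit called 3 of 19 member probe sets as risen, where 3.78% of all measured probe sets were. It called 0 as fallen, where 3.62% were. The unadjusted limma p was under 0.05 for 8 of the 19 members, beside 3488 of all 14902 probe sets.

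A further Tnfrsf22 probe set (1422039_at) had signals of 273 with AdIkBa-SR+TNFa, 206 with AdIkBa-SR, 562 with AdOVA+TNFa, 362 with AdOVA, 219 with TNFa and 187 untreated. It also separated both AdOVA arrays from the rest and rose with AdOVA (fitted log2 1.16, SE 0.28, limma adjusted p = 0.017). The remaining Tnfrsf22 probe set (1422038_a_at) was over the floor on the AdOVA array alone, at 60.9, and was not measured. Tnfrsf23 (1422101_at) stood at 740 with AdIkBa-SR+TNFa, 347 with AdIkBa-SR, 1333 with AdOVA+TNFa, 662 with AdOVA, 296 with TNFa and 338 untreated. Here the AdIkBa-SR+TNFa array was above the AdOVA array, so the virus states overlap. Tnfrsf23 rose with AdOVA, by 1.96-fold over untreated and 4.50-fold with TNFa present (fitted log2 1.57, SE 0.28, limma adjusted p = 0.0024).

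These calls were not kept in a fit without the AdOVA+TNFa array or under several processing settings. Without that array the log2 differences for AdOVA were 1.52, 1.00 and 1.29 for the brighter and the further Tnfrsf22 probe set and Tnfrsf23 (limma adjusted p = 0.33, 0.36 and 0.45). With the hybridization time as a block they were the same sizes and also not called (adjusted p = 0.34, 0.35 and 0.45). The pair hybridized together, AdOVA over untreated, was 2.61-fold, 1.93-fold and 1.96-fold in the same order. With a floor of 27 or quantile normalization, the brighter Tnfrsf22 probe set was called and the others were not (adjusted p from 0.053 to 0.08). Whether probe sets of these related genes also read the transcript of the neighbour was not tested.

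**Figure D2:**
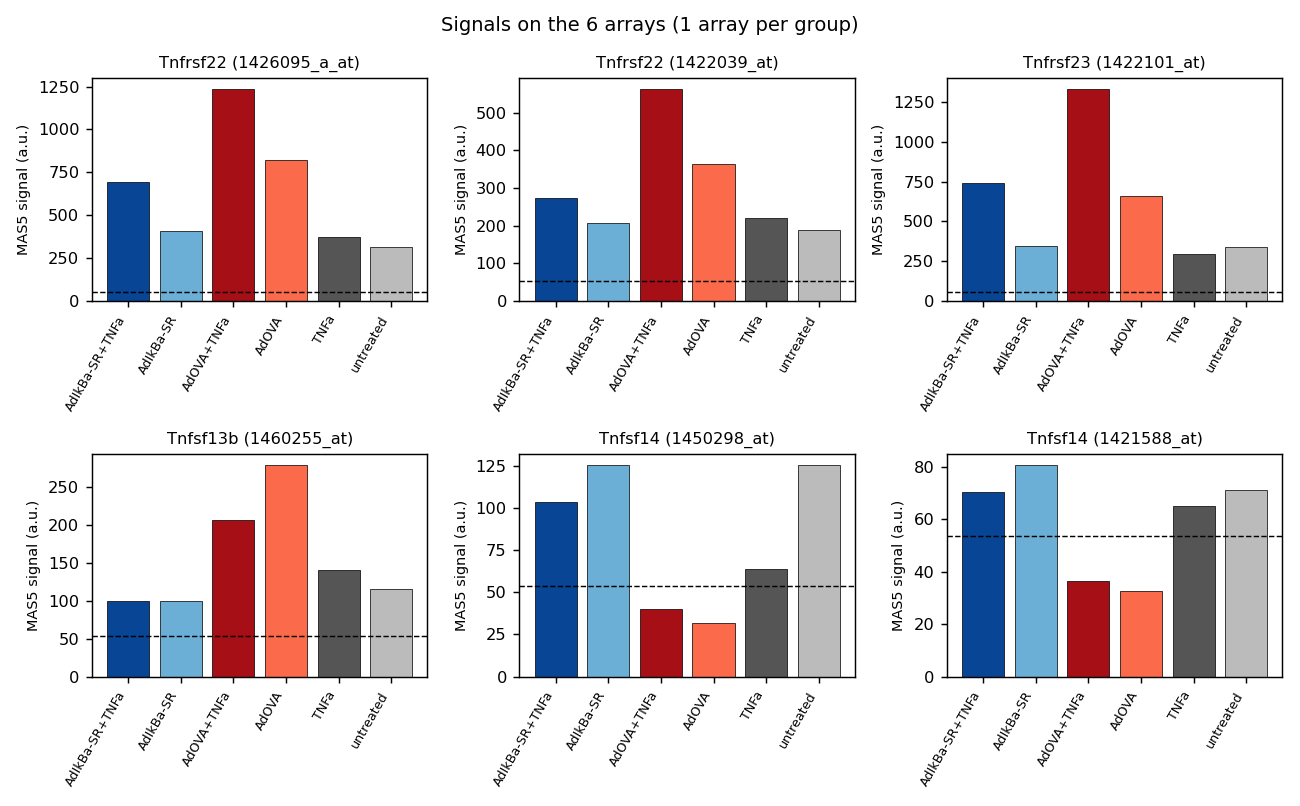
MAS5 signal (y axis, arbitrary units, from 0) on the 6 arrays for 6 probe sets of Tnfrsf22, Tnfrsf23, Tnfsf13b and Tnfsf14, 1 bar per array, with the floor dashed. Tnfrsf22 and Tnfrsf23 have their tallest bar with AdOVA+TNFa (1236, 562 and 1333), and Tnfsf14 is under the floor on both AdOVA arrays.

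With AdIkBa-SR, these decoy receptors stood between the AdOVA level and the level without virus. AdIkBa-SR over AdOVA was 0.50-fold, 0.57-fold and 0.52-fold for the brighter and the further Tnfrsf22 probe set and Tnfrsf23, and AdIkBa-SR+TNFa over AdOVA+TNFa was 0.56-fold, 0.48-fold and 0.56-fold. None of these was called (limma adjusted p of 0.12 to 0.26 in cells not given TNFa, 0.18 to 0.47 in cells given it). The pair without TNFa also differs in hybridization time and wash settings. Against the arrays without virus, which share no AdOVA array, AdIkBa-SR over untreated was 1.29-fold, 1.10-fold and 1.03-fold. AdIkBa-SR+TNFa over TNFa was 1.87-fold, 1.25-fold and 2.50-fold.

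For TNFa, Tnfrsf23 gave the following ratios. AdIkBa-SR+TNFa over AdIkBa-SR was 2.13-fold, AdOVA+TNFa over AdOVA 2.01-fold and TNFa over untreated 0.88-fold. For the brighter Tnfrsf22 probe set the first ratio was 1.70-fold and the last 1.18-fold, with 1236 against 822 for AdOVA+TNFa and AdOVA. The first ratio compares arrays with different wash settings, the second arrays of different hybridization times, and neither gene was called for TNFa (limma adjusted p = 0.64 and 0.57 without virus and with AdOVA together, 0.81 and 0.98 in AdIkBa-SR cells). The TNFa response in AdIkBa-SR cells minus that in the other cells was not called for Tnfrsf23 (log2 0.68, SE 0.49, limma adjusted p = 1). The difference between TNFa responses without virus and with AdOVA is the spread of the fit itself and cannot be tested with it.

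Tnfsf10, the gene of TRAIL, was near the floor. Its signals (1420412_at) were 38.5 with AdIkBa-SR+TNFa, 24.3 with AdIkBa-SR, 70.4 with AdOVA+TNFa, 101 with AdOVA, 49.6 with TNFa and 15.9 untreated, so only the AdOVA arrays were over the floor. AdOVA over untreated was at least 1.88-fold and AdOVA+TNFa over TNFa at least 1.32-fold, and AdOVA was not called (fitted log2 0.65, SE 0.23, limma adjusted p = 0.097). Tnfrsf10b, the death receptor for TRAIL, was not measured: its probe sets had a signal over the floor on 1 array at most, 59.4 with AdOVA.

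Tnfsf13b encodes BAFF, a survival factor for B cells, and was the member at least 2-fold lower with AdIkBa-SR than with AdOVA both without and with TNFa. Its signals (1460255_at) were 99.8 with AdIkBa-SR+TNFa, 99.3 with AdIkBa-SR, 206 with AdOVA+TNFa, 279 with AdOVA, 140 with TNFa and 116 untreated. Both AdOVA arrays were above the other 4. AdIkBa-SR over AdOVA was 0.36-fold and AdIkBa-SR+TNFa over AdOVA+TNFa 0.48-fold, and limma called neither (fitted log2 -1.31, SE 0.44, adjusted p = 0.18, and -1.22, SE 0.44, adjusted p = 0.14). Only the latter pair shares hybridization time and wash settings. AdOVA over untreated was 2.41-fold and AdOVA+TNFa over TNFa 1.47-fold (fitted log2 0.91, SE 0.33, limma adjusted p = 0.1). AdIkBa-SR over untreated was 0.86-fold. With equal medians, quantile normalization or the higher floor, Tnfsf13b was no longer 2-fold lower in both pairs.

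The receptors of BAFF were measured in part. Tnfrsf13b, which encodes TACI, stood at 428 with AdIkBa-SR+TNFa, 491 with AdIkBa-SR, 662 with AdOVA+TNFa, 567 with AdOVA, 551 with TNFa and 418 untreated. Both AdOVA arrays were the highest, by little, and AdOVA was not called (fitted log2 0.35, SE 0.24, limma adjusted p = 0.4). Tnfrsf13c, the gene of the BAFF receptor, was over the floor on 3 arrays, at 71.4 with AdOVA+TNFa, 78.5 with AdOVA and 61.4 with TNFa. Tnfrsf17, which encodes BCMA, had a highest signal of 18.4 and was not measured. These receptor genes are best known from B cells. Of 6 B and plasma cell markers on the array, 3 were measured, their summed signal ran from 204 to 350 over the 6 arrays, and their part in the TACI signal was not tested.

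Tnfsf14 encodes LIGHT, a ligand of HVEM and the lymphotoxin beta receptor, and was under the floor on both AdOVA arrays and over it on the other 4. The brighter probe set (1450298_at) had signals of 104 with AdIkBa-SR+TNFa, 126 with AdIkBa-SR, 40.4 with AdOVA+TNFa, 31.9 with AdOVA, 63.6 with TNFa and 126 untreated. On the other (1421588_at) they were 70.4, 80.8, 36.3, 32.6, 65.1 and 71.1 in the same order. AdIkBa-SR was at least 2.35-fold over AdOVA, and AdIkBa-SR+TNFa at least 1.94-fold over AdOVA+TNFa, on the brighter probe set. Hybridization time and wash settings differ in the former pair alone. limma did not call AdIkBa-SR against AdOVA (adjusted p = 0.27 without TNFa and 0.11 with TNFa) nor AdOVA (adjusted p = 0.15). With a floor of 27, equal medians or quantile normalization, this probe set was at least 2-fold higher with AdIkBa-SR in both pairs.

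All 5 megakaryocyte markers were measured, and their summed signal was 10332 with AdIkBa-SR+TNFa, 10645 with AdIkBa-SR, 3156 with AdOVA+TNFa, 5979 with AdOVA, 6858 with TNFa and 8265 untreated. The sum was lowest on the AdOVA arrays, as Tnfsf14 was, and it consists mostly of Pf4, a platelet chemokine. Only Pf4 and Ppbp of the 5 were lowest on both AdOVA arrays. Itga2b and Gp1bb were highest there (211 and 157 with AdOVA+TNFa, 229 and 157 with AdOVA), and Gp9 was not lowest there. For the 8 granulocyte markers the sums were 24896, 23171, 9603, 17420, 12675 and 19731 in the same order, lowest on the AdOVA+TNFa and TNFa arrays. The sum of the 11 DC markers, at 7884, 5960, 5672, 6013, 5925 and 6728, did not separate the AdOVA arrays from the others. Single DC markers did. Itgax and Irf8 were lowest on both AdOVA arrays (329 and 301 with AdOVA+TNFa, 247 and 291 with AdOVA). Zbtb46 was highest there (112 with AdOVA+TNFa and 147 with AdOVA), and the remaining DC markers were neither. The part of these markers' cells in the Tnfsf14 signal was not tested. Tnfrsf14, the gene of HVEM, had a highest signal of 7.5 and was not measured.

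Over all members, 1 of 19 measured probe sets (Tnfrsf22, 1426095_a_at) was at least 2-fold higher with AdOVA in both pairs, where 1.91% of all measured probe sets were, and 0 were at least 2-fold lower, where 1.37% were. Both AdOVA arrays lay above the other 4 for 8 member probe sets of 7 genes, against 21.1% of all measured probe sets: Tnfrsf22 (both measured probe sets), Tnfrsf13b, Tnfrsf13c, Tnfrsf8, Tnfrsf21 (1450731_s_at), Tnfsf10 and Tnfsf13b. They lay below the other 4 for both Tnfsf14 probe sets, against 12.5% of all. The median log2 difference of the measured members was 0.36 for AdOVA over untreated and 0.43 for AdOVA+TNFa over TNFa, beside 0.01 and 0.07 over all 14902 probe sets. Members passed the floor partly through the AdOVA arrays, and Tnfsf10 through these alone, so these counts and medians describe them and support nothing.

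**Figure D3:**
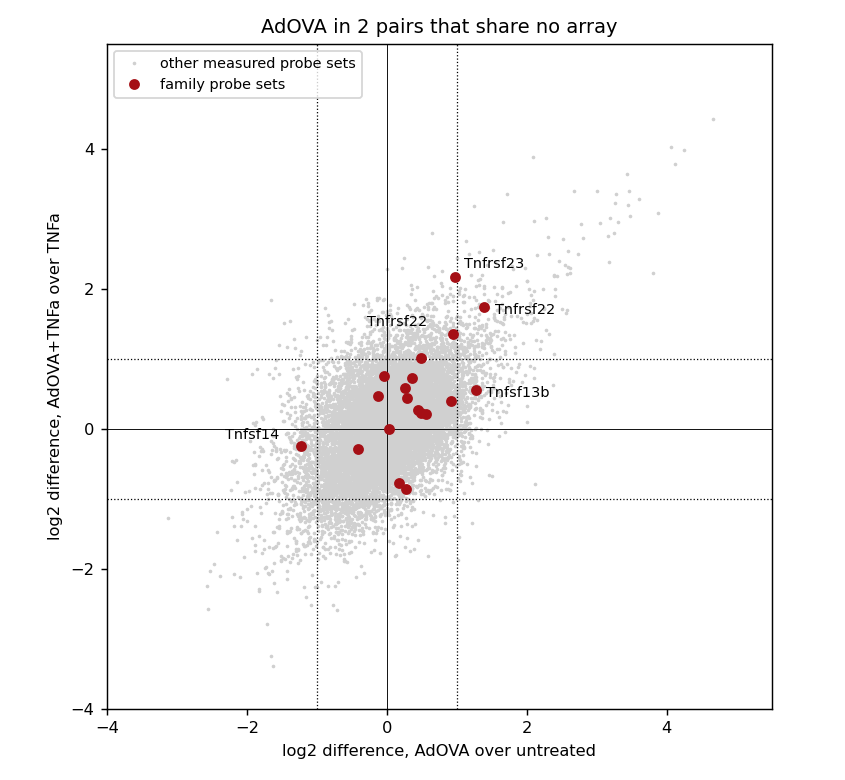
log2 difference of AdOVA over untreated (x axis) and of AdOVA+TNFa over TNFa (y axis) for the 19 measured family probe sets (red) and all other measured probe sets (grey), with dotted lines at 2-fold. The brighter Tnfrsf22 probe set (2.61-fold and 3.34-fold) lies beyond both lines, and Tnfrsf23 (1.96-fold and 4.50-fold) beyond the upper line alone.

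For AdIkBa-SR against AdOVA, 1 of 19 member probe sets (Tnfsf13b) was at least 2-fold lower in both pairs, where 1.64% of all were, and 0 were at least 2-fold higher, where 1.13% were. The pair without TNFa also differs in hybridization time and wash settings. limma called 0 members without TNFa, where it called 0.416% of all probe sets as risen and 0.705% as fallen. There 6 members had an unadjusted p under 0.05, beside 2058 of all 14902 probe sets. With TNFa limma also called 0 members, where 2.18% of all were called as risen and 1.56% as fallen. Here 4 members had an unadjusted p under 0.05, beside 2691 of all 14902 probe sets. The median log2 difference of the measured members was -0.32 without TNFa and -0.51 with TNFa, beside -0.03 and -0.12 over all probe sets. These comparisons share the AdOVA arrays with those of AdOVA over no virus, so a low value in one goes with a high value in the other by construction. Members that passed the floor through the AdOVA arrays are included here too, so these counts and medians also support nothing.

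**Figure D4:**
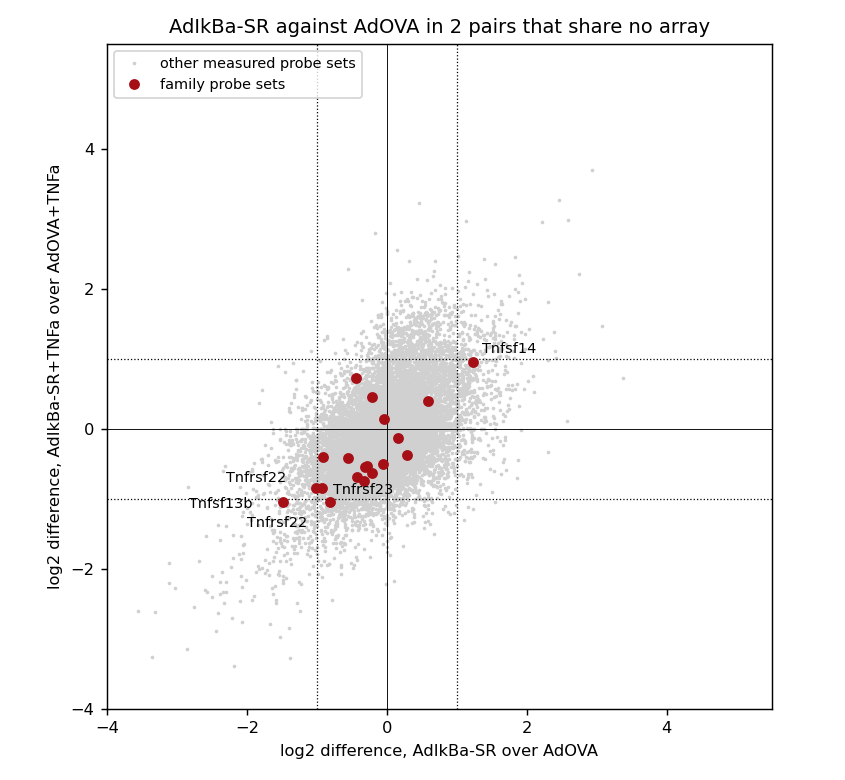
log2 difference of AdIkBa-SR over AdOVA (x axis) and of AdIkBa-SR+TNFa over AdOVA+TNFa (y axis) for the 19 measured family probe sets (red) and all other measured probe sets (grey), with dotted lines at 2-fold. Tnfsf13b (0.36-fold and 0.48-fold) lies beyond both lower lines, and the brighter Tnfsf14 probe set (at least 2.35-fold and at least 1.94-fold) is at the upper right.

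No member was called for TNFa. None of the 19 probe sets was at least 2-fold higher in both the pair without virus and the AdOVA pair, where 0.134% of all were, or at least 2-fold lower, where 0.168% were. limma called 0.0268% of all probe sets as risen and 0% as fallen. For 1 member, Tnfrsf21 (1422740_at), the unadjusted p was under 0.05, beside 1635 of all 14902 probe sets. In AdIkBa-SR cells, 1 member (Tnfrsf23) was at least 2-fold higher with TNFa, where 2.03% of all were, and 0 were at least 2-fold lower, where 0.832% were. limma called 0% of all probe sets in either direction there. The unadjusted p was under 0.05 for 2 members, beside 754 of all 14902 probe sets.

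Tnfrsf21 encodes DR6, a death-domain receptor, and its 2 probe sets gave different values for TNFa. On the brighter one (1450731_s_at) the signals were 786 with AdIkBa-SR+TNFa and 814 with AdIkBa-SR, 1150 with AdOVA+TNFa and 1015 with AdOVA, and 851 with TNFa and 827 untreated (fitted log2 0.11, SE 0.24, limma adjusted p = 0.91). On the other (1422740_at) the same pairs were 705 and 559, 909 and 456, and 658 and 496. There each array with TNFa was above its partner without it (fitted log2 0.70, SE 0.25, limma adjusted p = 0.26).

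Costimulatory receptors, best known from activated T cells, were measured in these cultures. Tnfrsf9, which encodes 4-1BB, had signals on its brightest probe set (1460469_at) of 1914 with AdIkBa-SR+TNFa, 1479 with AdIkBa-SR, 2774 with AdOVA+TNFa, 1794 with AdOVA, 1855 with TNFa and 1496 untreated. The AdOVA+TNFa array was the highest, and each array with TNFa was above its partner without it by 1.24-fold to 1.55-fold (fitted log2 0.47, SE 0.25, limma adjusted p = 0.51). A further Tnfrsf9 probe set (1428034_a_at) read 1155 with AdOVA+TNFa and between 665 and 814 on the other 5 arrays. On it, the TNFa array was below its partner in the pair without virus (687 against 713 untreated, 0.96-fold). The last Tnfrsf9 probe set (1421481_at) stayed within 42.1 to 59.2, around the floor. The T cell markers Cd3e, Cd3d and Cd3g were under the floor on every array. Thy1 (80.1 with TNFa to 185 with AdIkBa-SR+TNFa) and Cd247, of the same list, were measured. The part of T cells in the Tnfrsf9 signal was not tested.

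Tnfrsf4, which encodes OX40, stood at 257 with AdIkBa-SR+TNFa, 194 with AdIkBa-SR, 156 with AdOVA+TNFa, 263 with AdOVA, 266 with TNFa and 233 untreated, lowest where Tnfrsf9 was highest. Its ligand gene Tnfsf4 (OX40L), made by activated antigen-presenting cells, had 116 with AdIkBa-SR+TNFa, 133 with AdIkBa-SR, 196 with AdOVA+TNFa, 167 with AdOVA, 168 with TNFa and 119 untreated. Neither was called in any contrast (limma adjusted p of 0.33 or more). Tnfrsf18, which encodes GITR, lay between 46.3 with AdOVA+TNFa and 97.1 with TNFa. Tnfrsf8, the gene of CD30, lay between 21.2 with TNFa and 88.6 with AdOVA+TNFa, and its ligand gene Tnfsf8 was over the floor on the AdOVA+TNFa array alone, at 92.5.

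Tnfrsf11a, which encodes RANK, a receptor that sustains DC survival, had signals (1419214_at) of 108 with AdIkBa-SR+TNFa, 135 with AdIkBa-SR, 119 with AdOVA+TNFa, 121 with AdOVA, 58.7 with TNFa and 86.3 untreated. All 4 arrays with virus were above both arrays without it, and the share of all probe sets that do so was not counted. AdOVA over untreated was 1.40-fold and AdOVA+TNFa over TNFa 2.02-fold, and AdOVA was not called (fitted log2 0.75, SE 0.32, limma adjusted p = 0.17). AdIkBa-SR over untreated was 1.56-fold and AdIkBa-SR+TNFa over TNFa 1.84-fold. Of these pairs, only AdOVA over untreated shares a hybridization time, and the AdIkBa-SR array also had wash settings of its own. The RANK ligand gene Tnfsf11 reached 23.9 at most and Tnfrsf11b, the gene of the soluble decoy osteoprotegerin, 14.9, and neither was measured.

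The 9 genes that were not measured are Tnfrsf10b, Tnfrsf11b, Tnfrsf12a, Tnfrsf14, Tnfrsf17, Tnfrsf19, Tnfrsf25, Tnfsf8 and Tnfsf11. Of the 17 member probe sets below the criterion, 13 were over the floor on no array and 4 on 1 array. The probe sets just outside it were those with 1 array over the floor, with Tnfrsf22 (1422038_a_at) at 60.9, Tnfrsf10b (1422344_s_at) at 59.4, Tnfrsf19 (1415921_a_at) at 55.7 and Tnfsf8 at 92.5. Just inside it, with 2 arrays, were Tnfsf10 and Tnfrsf9 (1421481_at). Low signals here mean that a transcript was not detectable over the floor, not that it is absent. A further 2 probe sets carry several gene symbols, Tnfsf12 among them, and were left out.

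Of family members under other symbols, 13 of 15 listed are on the array and 9 were measured. limma called 1 of the 9, Tnf, as risen with AdOVA, where 3.78% of all measured probe sets were (583 with AdOVA+TNFa and 598 with AdOVA, against 318 with TNFa and 139 untreated, fitted log2 1.49, SE 0.31, adjusted p = 0.0064). With TNFa present, 2 of the 9, Tnf and the death receptor gene Fas, fell with AdIkBa-SR against AdOVA, where 1.56% of all did. The median fitted log2 difference of the 9 was 0.31 with AdOVA, -0.51 with AdIkBa-SR without TNFa and -0.63 with TNFa, beside 0.06, -0.06 and -0.12 over all probe sets. These comparisons share the AdOVA arrays, so a rise in one goes with a fall in the other by construction. The calls of this list were not recomputed under other settings. Tnf had 191 with AdIkBa-SR+TNFa and 583 with AdOVA+TNFa (adjusted p = 0.016), and Fas 61.5 and 193 (adjusted p = 0.029). Cd40, a receptor for T cell help, had 71.2 with AdIkBa-SR+TNFa, 61.8 with AdIkBa-SR, 185 with AdOVA+TNFa, 143 with AdOVA, 97.0 with TNFa and 79.3 untreated, and was not called. The other measured genes of this list (Ltbr, Fasl, Lta, Eda, Cd70 and Ngfr) were not called in any contrast.

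Of 28 listed genes that carry signals from these receptors, 22 are on the array and 21 were measured. With AdOVA, 3 rose and 0 fell, where 3.78% and 3.62% of all measured probe sets did: Traf1 and Tnfaip3, an adaptor and the A20 feedback inhibitor, and Casp8, the caspase of death receptors (limma adjusted p = 0.01, 0.00018 and 0.044). Casp8 had 1484 with AdOVA+TNFa and 1389 with AdOVA, against 906 with TNFa and 735 untreated. With AdIkBa-SR against AdOVA, 2 fell without TNFa (Traf1 and Tnfaip3) and 3 with TNFa (Traf1, Tnfaip3 and Birc3, a ubiquitin ligase bound to TRAF2), where 0.705% and 1.56% of all probe sets fell, and 0 rose. The median fitted log2 difference of the 21 was 0.29 with AdOVA, -0.33 with AdIkBa-SR without TNFa and -0.47 with TNFa, beside 0.06, -0.06 and -0.12 over all probe sets. Here too the comparisons share the AdOVA arrays, and opposite signs go together by construction. Calls of this list were likewise not recomputed under other settings. Traf1 stood at 303 with AdIkBa-SR+TNFa and 170 with AdIkBa-SR, against 746 with AdOVA+TNFa and 652 with AdOVA. For TNFa, 0 of the 21 were called, where 0.0268% of all were called as risen. The non-canonical pathway genes Nfkb2 and Relb, which receptors such as that for BAFF engage, had 336 and 158 with AdIkBa-SR+TNFa, against 86.0 and 18.2 (under the floor) with AdIkBa-SR, arrays that differ in wash settings (limma adjusted p = 0.65 and 0.71).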

How the data were processed

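Total RNA (8 ug per sample) of 6 samples was measured on 6 Affymetrix MOE430A arrays, and groups were taken from the sample titles. The deposited values are intensity on a linear scale, 1 MAS5 signal per probe set per the submitters' processing notes (version not stated), used without rescaling. Hybridization times and wash settings were read per the file headers. Probe sets were named by the platform annotation. Signals under a floor of 53.5 were set to it, log2 values taken, and 14902 of 22626 probe sets over it on 2 or more arrays kept. Where 1 signal of a ratio was under the floor, the ratio is a lower limit of the change. Each measured member gene could be named, by its probe set of highest mean signal and then its others.

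limma 3.58.1 (R 4.3.3; lmFit, eBayes with a trend) was fitted to all arrays with 5 coefficients (3 virus states, 1 TNFa response for AdOVA cells and cells without virus, a TNFa response in AdIkBa-SR cells), with Benjamini-Hochberg adjustment over all measured probe sets and a threshold of 0.05. It was also run on simulated data with equal, independent noise and no array effects, which does not check the p-values of these arrays. With 1 array per group the p-values rest on that pooled spread, and both AdIkBa-SR arrays are taken to vary as the others do. Ratios of single pairs carry no test. Members, gene lists and comparisons were chosen with earlier results of these data known. Alternatives varied the floor, scaling, filter, trend, model and fold; fits without the AdIkBa-SR or the AdOVA+TNFa array were chosen after seeing the data.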

Additional observations from a re-analysis of the deposited data

How the results depend on the processing

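No group has a replicate, so no value could be recomputed without a replicate. No paired analysis was possible because each group has 1 array and the labels carry no replicate numbers. Of 128 counts of members recomputed under the alternatives, 111 stayed within 1.5 times of the reported count. Most reported counts were 0 and stayed 0, so this share says little about the counts over 0, which follow. The count called as risen with AdOVA, 3, became 1 with a floor of 27, with the higher floor and with quantile normalization, and 0 without a filter on dim probe sets, with a block for the hybridization time, and when the AdOVA+TNFa array was left out. It was 2 with equal medians, and 3 without a trend, in the additive fit and without the AdIkBa-SR array. The unfiltered fit adds probe sets at the floor on all arrays, whose spread is 0. The block takes up the AdOVA+TNFa array, so it cannot tell the hybridization time from that array. Leaving that array out also changed the model to the additive one, with a spread from other arrays. For the other settings the cause was not tested. Direction was kept in all 33 recomputed log2 differences of the called Tnfrsf22 and Tnfrsf23 probe sets, from 1.00 to 1.66, with adjusted p from 0.00064 to 0.56. For AdOVA, members at least 2-fold higher in both pairs were 1 as reported, 2 with quantile normalization and 3 at 1.5-fold. For AdIkBa-SR against AdOVA, members at least 2-fold lower in both pairs went to 0 with the higher floor, equal medians and quantile normalization, and to 4 at 1.5-fold. Members higher in both pairs were 1, in place of 0, with a floor of 27, equal medians, quantile normalization and at 1.5-fold. For TNFa in AdIkBa-SR cells, 2 members were higher at 1.5-fold, in place of 1. No alternative called a member for TNFa or for AdIkBa-SR against AdOVA. Over all 14902 probe sets, setting the arrays to equal medians gave a median log2 difference of -0.09 in place of 0.07 for AdOVA+TNFa over TNFa, and 0.05 in place of -0.12 for AdIkBa-SR+TNFa over AdOVA+TNFa. Signals near the floor (Tnfsf10, Tnfsf14, Tnfrsf8, Tnfrsf13c, Tnfrsf18) are set by it in part, so their differences are compressed.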
